A study of Mus musculus with 16 samples.

Results

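The collagen genes were taken as every row of the gene table whose symbol consisted of Col, a number, the letter a and a further number, which gave 44 of 23179 genes. By the structure their proteins build, 11 were fibrillar, 8 belonged to basement membranes, 6 were beaded filament (type VI) chains and 9 were fibril-associated. A further 3 formed short-chain networks, 4 were transmembrane, and 3 (Col7a1, Col26a1 and Col28a1) were kept together as anchoring and other. Col21a1, a fibril-associated chain, had no row and is not analysed here. All 44 genes passed the filter on low values and were tested.

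Total RNA from the mammary fat pad on the side without the tumor was sequenced in female C57BL/6N mice, 4 mice and 4 libraries for each of 4 groups. CON-LFD mice ate a diet with 10% of energy from fat throughout and had a sham operation. Mice with diet-induced obesity (DIO) first ate a diet with 60% of energy from fat for 15 weeks. DIO-HFD mice stayed on it after a sham operation, DIO-LFD mice had a sham operation and changed to the 10% fat diet, and DIO-VSG mice had vertical sleeve gastrectomy, in which most of the stomach is removed, and changed to the 10% fat diet. Mice of all 4 groups had E0771 cells, a mouse mammary cancer line, injected into the 4th pad 7 weeks after the operation, and the 9th pad was taken 4 weeks later. DIO-VSG and DIO-LFD therefore shared the change of diet and differed in the operation. Removal of the lymph node of the pad was not described in the study's methods.

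Collagens are triple helices of 3 chains, each built of short repeats that begin with glycine. Fibrillar collagens (types I, III and V) pack into the banded fibers that carry tension in connective tissue, and in fat they are made mainly by fibroblasts and other stromal cells. Type IV collagen forms the sheet of the basement membrane that surrounds every adipocyte, capillary and mammary duct, and type VI collagen forms beaded filaments that link adipocytes to the fibrillar matrix. Increased deposition of types I, III and VI is known from obese adipose tissue.

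The 6 type IV genes lie in 3 head-to-head pairs, each pair read outward from a shared start region on opposite strands. In the GENCODE M21 annotation of build GRCm38, Col4a1 (minus strand, start at 11312826 on chromosome 8) and Col4a2 (plus strand, start at 11312805) overlap by 22 bases. Col4a4 (minus, 82586849) and Col4a3 (plus, 82586921) on chromosome 1 are 71 bases apart, and Col4a6 (minus, 141474076) and Col4a5 (plus, 141475385) on the X chromosome are 1308 bases apart. The 22 bases that both Col4a1 and Col4a2 begin in are shown because these were the most abundant of the chains and moved closely together. They are exonic in both genes (chr8:11312805-11312826, plus strand, RefSeq on GRCm38.p6), and the capitals mark a GC box, the letters GGGCGG.

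Col4a1 and Col4a2 shared start: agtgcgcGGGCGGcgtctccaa

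The 200 bases before the RefSeq starts of Col4a5 (chrX:141475170-141475369, plus strand) and Col4a6 (chrX:141474096-141474295, minus strand) are shown as well. Of the chain pairs compared below, the log2 ratio of this pair varied the least after that of Col4a1 to Col4a2. The start region of Col4a3 and Col4a4 is not shown. Capitals in the Col4a5 window mark a CAAT box, the letters CCAAT, and the Col4a6 window holds neither that box, nor a GC box, nor a TATA box.

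Col4a5 upstream: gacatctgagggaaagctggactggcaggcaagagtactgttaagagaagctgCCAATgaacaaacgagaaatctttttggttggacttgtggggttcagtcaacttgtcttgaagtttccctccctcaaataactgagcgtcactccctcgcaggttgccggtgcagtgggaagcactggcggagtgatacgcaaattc

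Col4a6 upstream: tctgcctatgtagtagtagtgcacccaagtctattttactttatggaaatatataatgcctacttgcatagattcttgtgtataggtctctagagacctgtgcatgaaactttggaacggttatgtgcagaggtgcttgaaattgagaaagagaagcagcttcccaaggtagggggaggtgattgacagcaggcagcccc

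Both strands were searched for the letters of the CAAT box (CCAAT), those of the GC box (GGGCGG) and those of the TATA box (TATAAA), and no match overlapped another in the windows shown. Of 32851 RefSeq windows of the 200 bases before a start, 29.3% held a CAAT box, 31% a GC box and 9.96% a TATA box. The 35 of 44 collagen genes found in that table had 38 windows, of which 10, 22 and 4 held these in turn. The 22 shared bases of Col4a1 and Col4a2 are shorter than these windows.

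The libraries held 46907377 to 57610899 reads, and a normalized count is a gene's reads divided by the size factor of its library (0.904 to 1.22). All libraries carried the marker genes of the labelled tissue, with summed normalized counts of 439885 to 1709950 for 9 adipocyte markers and 32218 to 131768 for 9 mammary epithelial markers. They differed in lymphoid content. The sum of 9 B cell markers was 21222, 322, 77482 and 1490.2 in CON-LFD, 102737, 3497, 1105 and 63889 in DIO-HFD, 18397, 42078, 39864 and 36848 in DIO-LFD and 81296, 72039.8, 81260.1 and 69977 in DIO-VSG. CON-LFD replicates 2 and 4 and DIO-HFD replicates 2 and 3 were thus low in B cell transcripts, while all 4 DIO-VSG libraries were high. DIO-LFD replicate 1 stood apart in its fibrillar collagens.

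A few genes held nearly all collagen counts. Col3a1, the type III chain, accounted for 18.3% of all collagen counts over the 16 libraries, Col4a1 and Col4a2 of the basement membrane for 15.8% and 11.5%, and Col1a1 and Col1a2, the chains of type I collagen, for 9.57% and 8.17%. The 12 highest genes, which also included the 3 main type VI chains, Col15a1 and the 3 type V chains, held 91.9%. Per kilobase of the longest transcript the order of the first 6 was the same, from Col3a1 with a mean of 12828 normalized counts per kilobase to Col6a1 with 4906, whereas Col6a3, whose transcript is the longest of the type VI chains, moved from place 7 to place 10.

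At the low end, 21 of the 44 genes had a mean of at least 1000 normalized counts, 35 of at least 100 and 39 of at least 20. The 5 genes under 20 were Col2a1, Col22a1, Col26a1, Col19a1 and Col10a1. Col2a1, the main collagen of cartilage, measured 3.70, 23.2, 105 and 4.10 normalized counts in the DIO-HFD mice and 8.30, 26.1, 6.16 and 2.86 in the DIO-VSG mice, so single libraries set its group means. Col9a2, a type IX chain of cartilage, was higher, at 147 to 1053 over the 16 libraries.

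All collagen counts together took 0.805% ± 0.428 of a library in CON-LFD, 0.918% ± 0.304 in DIO-HFD, 0.764% ± 0.335 in DIO-LFD and 0.477% ± 0.172 in DIO-VSG (mean ± SD, n = 4 mice). The DIO-VSG libraries ranged from 0.308% to 0.694% and the DIO-HFD libraries from 0.600% to 1.33%, so the groups overlapped in this share. Summed normalized counts of the 11 fibrillar genes were 300325, 89546, 96567 and 408343 in CON-LFD, 126312, 196738, 267878 and 193102 in DIO-HFD, 31119, 116878, 266996 and 305273 in DIO-LFD and 52039.9, 117217, 96087 and 189748 in DIO-VSG. Those of the 8 basement membrane genes were 157746, 112936, 82658 and 199689, 88668, 176763, 308934 and 111545, 170672, 94831, 137480 and 200257 and 70638, 83746, 67047 and 118476 in the same order of groups. The fibrillar sum varied over a wider range than the basement membrane sum, and its lowest value was that of DIO-LFD replicate 1, a library whose basement membrane sum was among the higher ones.

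**Figure D1:**
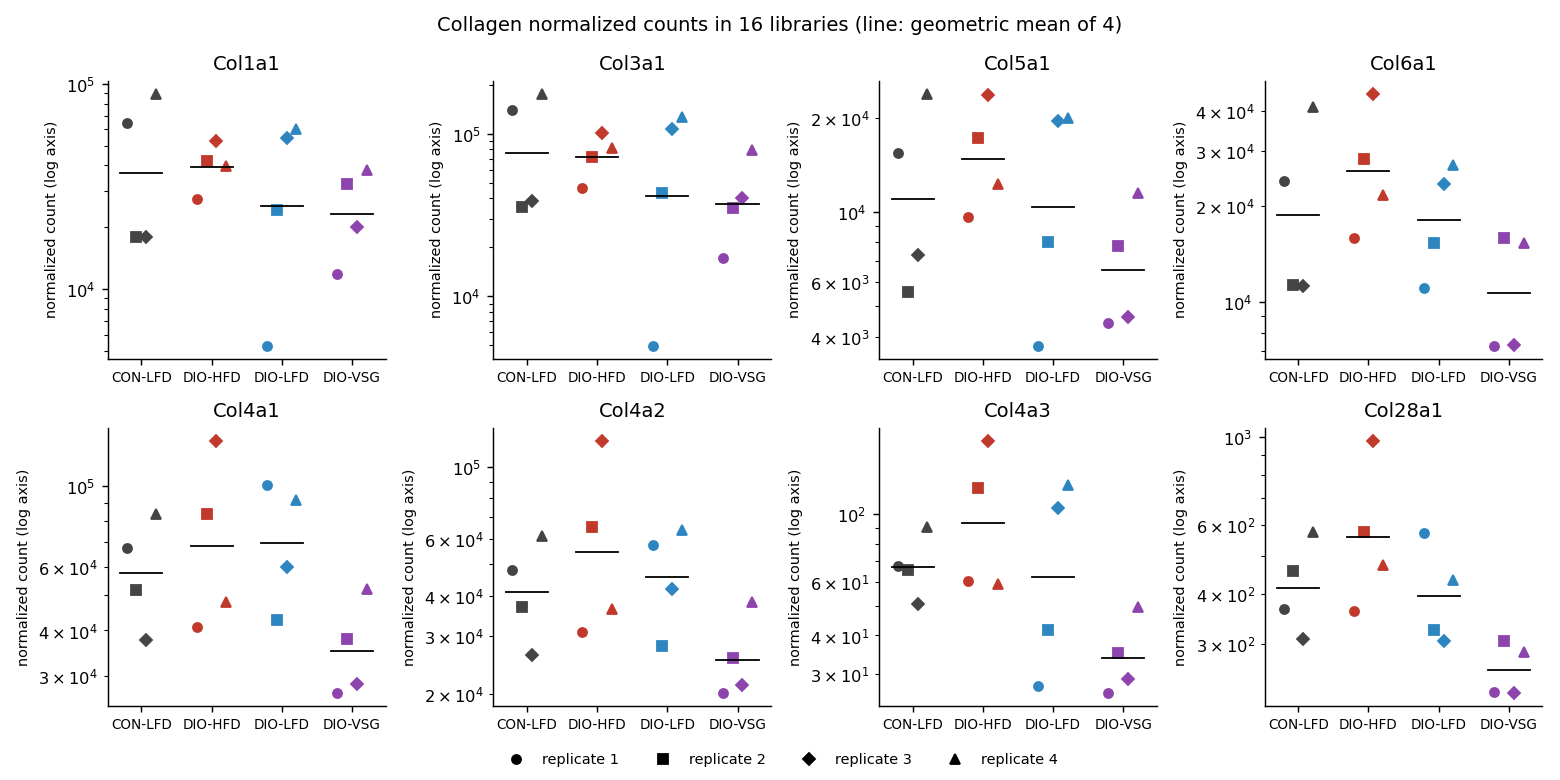
Normalized counts (log axis) of 8 collagen genes in the 16 libraries by group, with marker shape for the replicate number and a line at the geometric mean of the 4 mice. The type IV chains, Col6a1 and Col28a1 of DIO-VSG mice sit low beside DIO-HFD, and DIO-LFD replicate 1 lies at 4948 for Col3a1 but at 100623 for Col4a1.

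DIO-VSG was compared with DIO-HFD to ask how sleeve gastrectomy with a low-fat diet differed from continued obesity. Relative to DIO-HFD, 38 of 44 collagens were lower in DIO-VSG, with a median log2 fold change of -0.56 against 0.02 over all 21218 genes tested, of which 47.5% were lower. In this bulk tissue fewer cells of a type and less RNA per cell cannot be told apart. By limma-trend no collagen reached an adjusted *P* value below 0.05 (0 of 44, background 0% of genes; smallest adjusted *P* value 0.246), nor did any by limma-voom on the recovered reads. Unadjusted, 10 genes had a *P* value below 0.05, all lower, where 13.2% of all genes passed, 8.12% as lower and 5.05% as higher. In 6 of 44 genes (Col4a3, Col6a1, Col12a1, Col16a1, Col24a1 and Col28a1) every DIO-VSG mouse was below every DIO-HFD mouse, against 4.22% of all genes, and none was above without overlap, against 2.37%. Fold changes are given as log2 estimates ± their standard errors.

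All 8 basement membrane collagens had a negative log2 fold change (median -0.95). Of these 5 had an unadjusted *P* value below 0.05, against 8.12% of all genes, and 0 passed adjusted. Col4a1, a chain of the ubiquitous type IV network, measured 40822, 83594, 133332 and 47815 normalized counts in DIO-HFD and 26896, 37782, 28541 and 52162 in DIO-VSG, a log2 fold change of -0.96 ± 0.39 (unadjusted *P* value 0.0267, adjusted 0.334). Its partner Col4a2 measured 30992, 65158, 120409 and 36339 against 20073, 25742, 21212 and 38213, a log2 fold change of -1.10 ± 0.41 (unadjusted *P* value 0.0172, adjusted 0.312). For both chains DIO-HFD replicates 2 and 3, the libraries of that group with few B cell transcripts, were above every DIO-VSG mouse, while replicates 1 and 4 lay within the DIO-VSG range. The part of lymphoid content in this difference was not tested beyond the B cell covariate and the fit without those libraries.

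Col4a3, which with Col4a4 and Col4a5 builds the type IV network of specialized membranes such as that of the glomerulus, measured 60.1, 122, 174 and 59.0 in DIO-HFD and 25.9, 35.1, 28.7 and 49.6 in DIO-VSG, a log2 fold change of -1.44 ± 0.47 (unadjusted *P* value 0.00818, adjusted 0.275). The groups did not overlap, although its level per kilobase was far below that of Col4a1. Col4a4 gave -1.18 ± 0.48 (unadjusted *P* value 0.0282, adjusted 0.335). Col18a1, whose C-terminal fragment is endostatin, gave -0.94 ± 0.41 (unadjusted *P* value 0.0368, adjusted 0.359), from 4187, 10939, 22075 and 7372 normalized counts in DIO-HFD to 4190.5, 5511, 4474 and 5342 in DIO-VSG. Col4a5 and Col4a6, at -0.23 and -0.23, and Col15a1, a proteoglycan of the outer side of the membrane, at -0.16 ± 0.62, lay nearer to zero.

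Type VI collagen split into an abundant and a scarce set. Col6a1, which assembles with Col6a2 and Col6a3 or a relative of Col6a3, measured 15960.2, 28144, 45324 and 21720.1 in DIO-HFD and 7269, 15935, 7291 and 15339 in DIO-VSG, a log2 fold change of -1.27 ± 0.46 (unadjusted *P* value 0.0154, adjusted 0.308). Its groups were separated by a narrow gap. Col6a2 gave -1.30 ± 0.56 (unadjusted *P* value 0.0366, adjusted 0.359) and Col6a3 -1.22 ± 0.64 (unadjusted *P* value 0.0759, adjusted 0.397), both with overlapping groups. Col6a6, another relative of Col6a3, gave -0.36 ± 0.79. The alternative partner chains Col6a4 and Col6a5 had positive log2 fold changes of 1.69 ± 1.04 and 1.11 ± 0.91, and in DIO-HFD they were high in replicates 1 and 4 and low in replicates 2 and 3 (Col6a4 1310.3, 64.2, 31.7 and 548). That order of the mice is the order of their B cell marker sums, and its part in the difference was not tested.

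Fibrillar collagens were lower in 9 of 11 cases (median -0.76), but none had an unadjusted *P* value below 0.05. Col3a1 measured 45971, 71394, 101426 and 82089 in DIO-HFD and 17071, 34799.8, 40091 and 79778 in DIO-VSG, a log2 fold change of -0.96 ± 0.87 (unadjusted *P* value 0.289, adjusted 0.574). For Col1a1 the values were 27444, 41896, 52842 and 39730.1 against 11848, 32451, 20093 and 38072, a log2 fold change of -0.76 ± 0.72 (unadjusted *P* value 0.308, adjusted 0.588). In each of these the highest DIO-VSG mouse lay within the DIO-HFD range. Col1a2 gave -0.90 ± 0.62, and the type V chains, which help set the diameter of type I fibers, gave -1.17 ± 0.57 for Col5a1, -0.97 ± 0.50 for Col5a2 and -0.56 ± 0.69 for Col5a3. The standard errors of Col3a1 and Col1a1 were nearly as large as their fold changes, and the 16 libraries, DIO-LFD replicate 1 among them, shared that estimate of the spread. Col11a2 and Col27a1 were the fibrillar genes with a positive difference, at 0.68 ± 0.46 and 0.27 ± 0.29.

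Among the remaining classes Col28a1, a chain related to type VI by its von Willebrand domains and found around nerves, had the smallest *P* value of all collagens. It measured 363, 574, 976 and 474 normalized counts in DIO-HFD and 227, 305, 226 and 286 in DIO-VSG, a log2 fold change of -1.10 ± 0.29 (unadjusted *P* value 0.0018, adjusted 0.246), and the groups did not overlap. Col16a1, which sits on the surface of fibers, measured 4145, 5075, 6108 and 4149 against 2002, 2903, 2523 and 3167 and gave -0.88 ± 0.32 (unadjusted *P* value 0.0158, adjusted 0.309). Col12a1, of the same class, measured 1659, 1885, 1817 and 1818 against 663, 1259, 1100.3 and 1247 and gave -0.79 ± 0.29 (unadjusted *P* value 0.0167, adjusted 0.312), and neither gene overlapped between the groups. Of the 9 fibril-associated genes 8 were lower, of the 3 short-chain genes 2, and of the 4 transmembrane genes all 4. Col14a1 gave -0.91 ± 0.58, Col7a1 of the anchoring fibrils of skin -0.78 ± 0.46, Col17a1 of the hemidesmosome -0.77 ± 0.42 and Col8a1 of the vessel wall -0.16 ± 0.45. Outside the fibrillar and type VI classes the positive differences were those of Col10a1 (0.64 ± 0.42) and Col20a1 (0.29 ± 0.26), both with unadjusted *P* values above 0.05.

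**Figure D2:**
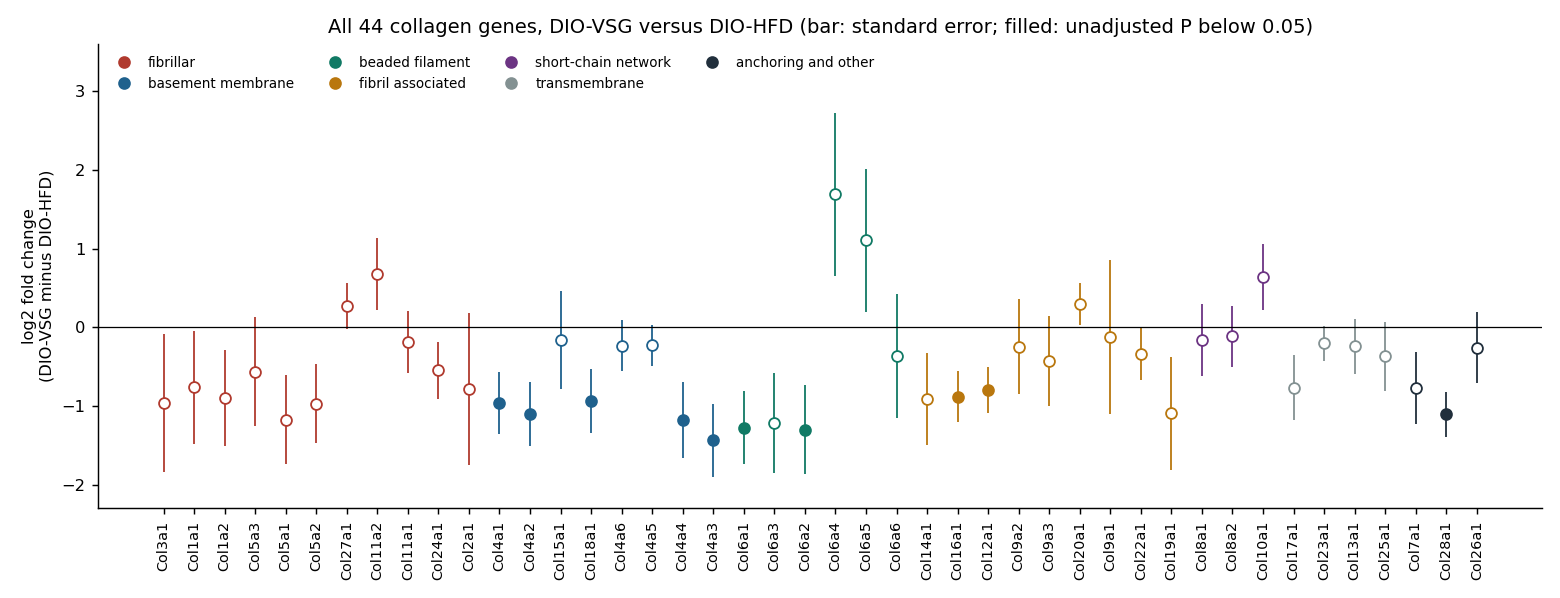
Log2 fold change (DIO-VSG minus DIO-HFD) of all 44 collagen genes, colored by class and ordered by mean level within the class, with standard errors from limma-trend and filled points at an unadjusted *P* value below 0.05. The 10 filled points are all below 0 and 5 of them are basement membrane genes.

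The count of 10 depended on which libraries entered. Without the 4 libraries with the lowest B cell marker sums it was 2 (Col17a1 and Col28a1, against 6.95% of all genes), with the B cell marker level as a covariate it was also 2 (Col28a1 and Col4a3, against 10.2%), and the median log2 fold change was -0.40 and -0.57, with 38 and 36 genes lower. The choice of those 4 libraries was made after seeing the data. It left only DIO-HFD replicates 1 and 4 beside all 4 DIO-VSG mice, and the part of the smaller group in the lower count was not tested. The share of all genes passing moved too. Without DIO-HFD replicate 3 alone the count was 5 (8.67% of all genes), without DIO-VSG replicate 1 it was 5 (9.39%), without DIO-VSG replicate 3 it was 6 (7.47%), without DIO-HFD replicate 2 it was 6 (7.87%), and without DIO-HFD replicate 1, the library with the highest B cell sum, it was 16, against 27.5% of all genes. When libraries were weighted by how closely they followed the group means, 21 collagens passed unadjusted, against 33.9% of all genes, and 10 passed at an adjusted *P* value below 0.05 (1 higher and 9 lower), against 17.6%. Those weights ran from 0.222 for DIO-HFD replicate 3 to 10.9 for DIO-HFD replicate 4, so that 1 mouse carried most of the DIO-HFD mean.

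DIO-VSG and DIO-LFD mice ate the same diet at the end, and their comparison asks what the operation added. Relative to DIO-LFD, 34 of 44 collagens were lower in DIO-VSG (median log2 fold change -0.47, against -0.02 for all genes, of which 52.7% were lower). None passed at an adjusted *P* value below 0.05 (background 0%, limma-trend and limma-voom), and 2 passed unadjusted, 1 lower and 1 higher, against 9.71% of all genes (5.41% lower and 4.3% higher). Col4a1 measured 100623, 42710.4, 60005 and 91441 normalized counts in DIO-LFD and gave -0.99 ± 0.39 (unadjusted *P* value 0.0231, adjusted 0.509), and Col4a2 gave -0.84 ± 0.41 (unadjusted *P* value 0.0575, adjusted 0.51). The DIO-VSG values of Col4a1 lay mostly below the DIO-LFD values, with 1 DIO-VSG mouse inside their range.

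Col10a1, the network collagen of hypertrophic cartilage and a scarce transcript here, was the higher gene. It measured 5.46, 6.94, 5.72 and 2.04 in DIO-LFD and 8.30, 8.09, 19.5 and 12.4 in DIO-VSG, a log2 fold change of 1.12 ± 0.42 (unadjusted *P* value 0.0191, adjusted 0.509), and its groups did not overlap (1 of 44 higher without overlap, against 12.9% of all genes). Col28a1 and Col18a1 were lower without overlap (2 of 44, against 5.83%). For Col28a1 the lowest DIO-LFD and the highest DIO-VSG mouse were less than 1 normalized count apart. It measured 572, 325, 305 and 434 in DIO-LFD and gave -0.61 ± 0.29 (unadjusted *P* value 0.0514, adjusted 0.51). Col13a1, a transmembrane collagen of the neuromuscular junction, gave -0.72 ± 0.35 (unadjusted *P* value 0.0576, adjusted 0.51). Of the 11 fibrillar genes 9 were lower (median -0.49) and none passed unadjusted. Col1a1 and Col3a1, which were far lower in DIO-LFD replicate 1 than in the rest of its group, gave -0.13 ± 0.72 and -0.15 ± 0.87.

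DIO-LFD replicate 1 bore on this result. Without it the count at an unadjusted *P* value below 0.05 was 6 (8.48% of all genes), 37 of 44 genes were lower and the median was -0.74. The count was 5 without DIO-HFD replicate 3 (11.9% of all genes) and 4 when DIO-HFD replicate 1 (13.3%) or the second mouse of DIO-LFD (8.64%) or DIO-VSG (8.6%) was left out. It was 1 without DIO-VSG replicate 1 (5.11%) or 3 (6.44%), and 0 without DIO-LFD replicate 4 (7.95%), a library with many skeletal muscle transcripts. When only the 8 libraries of the 2 groups were fitted the count was 9, against 25.3% of all genes, and without DIO-LFD replicate 1 and the 4 libraries with the lowest B cell sums, a choice made after seeing the data, it was 18 (1 higher and 17 lower), against 19.4%. Library weights gave 19, against 25.9%. The adjusted count was 0 in each of these.

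Against lean controls, 36 of 44 collagens were lower in DIO-VSG (median log2 fold change -0.66 against -0.02 for all genes, of which 52.2% were lower). No gene passed at an adjusted *P* value below 0.05 (background 0%, both methods), and 8 passed unadjusted, 1 higher and 7 lower, where 17.8% of all genes passed, 7.55% as lower and 10.2% as higher. Col11a1, a minor fibrillar chain, measured 441, 237, 105 and 157 in CON-LFD and 84.0, 106, 101 and 62.9 in DIO-VSG, a log2 fold change of -1.23 ± 0.39 (unadjusted *P* value 0.00727, adjusted 0.268). CON-LFD replicates 1 and 2 were the high values, and replicate 3 lay within the DIO-VSG range. Its partner Col11a2 was the higher gene, at 1.03 ± 0.46 (unadjusted *P* value 0.0418, adjusted 0.271), with 106, 125, 291 and 71.3 in CON-LFD against 305, 283, 266 and 213 in DIO-VSG. In CON-LFD it was highest in replicate 3, the library of that group with the most B cell transcripts.

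Col17a1, a transmembrane collagen of epithelial cells, measured 3864, 4705, 1683 and 1779 in CON-LFD against 1292, 1184, 1389 and 1511 in DIO-VSG, a log2 fold change of -1.02 ± 0.42 (unadjusted *P* value 0.0285, adjusted 0.268), without overlap. Of 9 mammary epithelial markers 7 were lower in the same comparison (median -0.53, 2 at an unadjusted *P* value below 0.05), as were all 8 myofibroblast and mural markers (5 unadjusted), all 9 adipocyte markers (0) and 6 of 7 Schwann cell markers (3), while all 9 B cell (9) and all 9 T cell markers (7) were higher. Of all genes 7.55% passed unadjusted as lower and 10.2% as higher. The sum of 10 fibroblast markers was 69644 to 216466 in CON-LFD and 53939 to 93511 in DIO-VSG. With the B cell marker level as a covariate 36 collagens were still lower with a median of -0.47, and the part of the other lists was not tested. Col7a1 gave -1.13 ± 0.46 (unadjusted *P* value 0.027, adjusted 0.268), Col13a1 -0.89 ± 0.35 (unadjusted *P* value 0.022, adjusted 0.268) and Col25a1 -1.01 ± 0.44 (unadjusted *P* value 0.0364, adjusted 0.268). Col28a1 and Col12a1 gave -0.68 ± 0.29 and -0.68 ± 0.29. All 8 basement membrane genes were lower (median -0.60), with no unadjusted *P* value below 0.05, and 3 of 44 genes (Col4a3, Col17a1 and Col28a1) were lower without overlap, against 4.43% of all genes, while none was higher without overlap, against 2.59%. The count of 8 was 15 without CON-LFD replicate 3 (30.5% of all genes), 2 without CON-LFD replicate 1 (12.3%), 5 without CON-LFD replicate 2 (9.72%), 4 without DIO-VSG replicate 3 (13.3%), 1 without DIO-VSG replicate 1 (10%), and 24 with library weights (37.4% of all genes), of which 12 passed adjusted (19.9%). Without CON-LFD replicate 3, 1 gene passed adjusted (4.11% of all genes).

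The collagens had no common direction in obesity. Relative to CON-LFD, 24 of 44 genes were higher and 20 lower in DIO-HFD (median log2 fold change 0.10 against 0.02 for all genes, of which 47.3% were lower). None passed at an adjusted *P* value below 0.05 (background 0.0377%; none by limma-voom), and 2 passed unadjusted, 1 in each direction, against 12.9% of all genes (7.66% lower and 5.23% higher). Col11a1 measured 95.3, 128, 64.4 and 120.4 in DIO-HFD and gave -1.04 ± 0.39 (unadjusted *P* value 0.0186, adjusted 0.292). Col22a1, a scarce fibril-associated chain of tissue junctions, measured 13.2, 8.48, 16.6 and 16.1 in CON-LFD and 28.7, 13.3, 39.3 and 20.5 in DIO-HFD and gave 0.79 ± 0.33 (unadjusted *P* value 0.0302, adjusted 0.333). Both genes overlapped between the groups, as did all others, whereas 3% of all genes were lower and 1.76% higher without overlap.

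The collagens linked to obese fat did not separate these groups. Col1a1 measured 64256, 17987, 17930.4 and 89445 in CON-LFD, a range that enclosed all 4 DIO-HFD mice, and gave 0.10 ± 0.72. Col3a1, at 138722, 35190.3, 38294 and 176078 in CON-LFD, gave -0.07 ± 0.87. Col6a1, Col6a2 and Col6a3 gave 0.45 ± 0.46, 0.33 ± 0.56 and 0.43 ± 0.64, and Col4a1 and Col4a2 gave 0.25 ± 0.39 and 0.41 ± 0.41. In CON-LFD, replicates 1 and 4 were high and replicates 2 and 3 low for each of Col1a1, Col3a1 and Col6a1. Of the other genes with the smallest *P* values, Col23a1, a transmembrane chain, gave 0.43 ± 0.22 (unadjusted *P* value 0.0701, adjusted 0.431), Col13a1 -0.65 ± 0.35 (unadjusted *P* value 0.0816, adjusted 0.451) and Col26a1 0.78 ± 0.45 (unadjusted *P* value 0.106, adjusted 0.489). Leaving out CON-LFD replicate 1 (9.13% of all genes), or the third DIO-HFD mouse (12.6%), brought the count of 2 to 0, and leaving out CON-LFD replicate 2 (8.53%) brought it to 1. Leaving out CON-LFD replicate 3 (19.7%), or the second DIO-HFD mouse (14%), brought it to 5. With library weights it was 10 (37.5% of all genes), and 3 passed adjusted (19.8%). The sign of the median turned in several fits. It was -0.15 with 29 genes lower under library weights, -0.10 with 25 lower without CON-LFD replicate 3, and -0.0228 with 23 lower without the 4 libraries low in B cell transcripts.

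Diet change alone, DIO-LFD against DIO-HFD, left 25 collagens lower and 19 higher (median -0.31 against 0.01 for all genes, of which 48.4% were lower). None passed adjusted (background 0%, both methods) and 2 passed unadjusted, 1 in each direction, against 8.53% of all genes (3.16% lower and 5.37% higher). Col20a1, a fibril-associated chain, measured 195, 189, 102 and 213 in DIO-HFD and 255, 309, 264 and 209 in DIO-LFD, a log2 fold change of 0.61 ± 0.26 (unadjusted *P* value 0.0362, adjusted 0.552), and DIO-HFD replicate 3 was far below the rest while the highest DIO-HFD mouse overlapped the DIO-LFD range. Col23a1 measured 583, 356, 496 and 501 against 249, 282, 489 and 395, a log2 fold change of -0.48 ± 0.22 (unadjusted *P* value 0.0437, adjusted 0.572). All 44 genes overlapped between the groups, against 1.5% of all genes lower and 3.01% higher without overlap. Col4a1 gave 0.03 ± 0.39, Col1a1 -0.63 ± 0.72 and Col3a1 -0.81 ± 0.87. The direction turned on DIO-LFD replicate 1, since without it 20 of 44 genes were lower and the median was 0.05, and without the 4 libraries low in B cell transcripts as well 14 were lower and the median was 0.25. Without DIO-HFD replicate 3 (9.05% of all genes) or DIO-LFD replicate 2 (5.95%) no collagen passed unadjusted. The count was 1 without any one of CON-LFD replicate 4, DIO-HFD replicate 4, DIO-LFD replicate 3 and DIO-VSG replicates 2, 3 and 4 (7.77% to 8.49% of all genes), and 6 with library weights (26.4% of all genes).

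In DIO-LFD against CON-LFD, 30 collagens were lower and 14 higher (median -0.12 against 0.02 for all genes, of which 46.9% were lower), none passed adjusted (background 0.00471%) and 0 passed unadjusted by limma-trend or limma-voom, against 6.26% of all genes (3.03% lower and 3.23% higher). All 44 overlapped, against 1.81% of all genes lower and 1.73% higher without overlap. The smallest *P* value was that of Col14a1, a chain that binds the fiber surface, which measured 8116, 4021, 3351 and 13209 in CON-LFD and 906, 3466, 7045 and 4259.9 in DIO-LFD, a log2 fold change of -0.98 ± 0.58 (unadjusted *P* value 0.112, adjusted 0.861). DIO-LFD replicate 1 was the lowest of all 16 libraries for it. Without that library 16 of 44 collagens were lower and the median was 0.10, without CON-LFD replicate 1 they were 21 with a median of 0.0072, and without DIO-LFD replicate 1 and the 4 libraries low in B cell transcripts they were 12 with a median of 0.22, so the majority turned in each case. Without CON-LFD replicate 3 the count was 3 (12.5% of all genes), without DIO-LFD replicate 2 (5.73%) or 3 (5.67%) it was 1, and with library weights it was 6 (17% of all genes).

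Chains that assemble together were compared as ratios within a library, which do not depend on how the library was scaled. Over the 16 libraries the log2 ratio of Col4a1 to Col4a2 had an SD of 0.14, against 0.67 and 0.69 for the chains alone, and that of Col4a5 to Col4a6 had an SD of 0.15, against 0.39 and 0.48. These are the head-to-head pairs whose start regions are shown, and they were chosen for these ratios. The remaining head-to-head pair, Col4a3 and Col4a4, varied more, and a link between a shared start region and the ratio was not tested. Col1a1 to Col1a2 had an SD of 0.23 (chains 1.04 and 0.92), Col6a1 to Col6a2 0.24, Col9a2 to Col9a3 0.28, Col5a1 to Col5a2 0.28, Col8a1 to Col8a2 0.32 and Col4a3 to Col4a4 0.36. In contrast Col11a1 to Col11a2 varied with an SD of 1.18, wider than the single chains. Col6a4 to Col6a5 had an SD of 1.36, about as wide as the single chains, but these are alternative partner chains and not a pair that assembles together. Both chains of a ratio share their library, so these figures are a description.

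The ratio of Col4a1 to Col4a2 was lowest in DIO-HFD. It was 1.40, 1.40, 1.44 and 1.37 in CON-LFD, 1.32, 1.28, 1.11 and 1.32 in DIO-HFD, 1.75, 1.52, 1.43 and 1.43 in DIO-LFD and 1.34, 1.47, 1.35 and 1.37 in DIO-VSG. Every DIO-HFD mouse was below every mouse of the other 3 groups. On the log2 scale DIO-HFD differed by -0.16 from CON-LFD, DIO-VSG by 0.14 from DIO-HFD and DIO-LFD by 0.29 from DIO-HFD, each with an exact two-sided permutation *P* value of 0.0286, the smallest that 4 against 4 allows. Adjusted over the 20 tests of 5 ratios in 4 comparisons the value was 0.19, so none passed. These 3 comparisons share the DIO-HFD mice, and replicate 3 of that group was the lowest. Without any one mouse the signs of all 3 stayed, but 3 against 4 cannot reach 0.05.

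Fibrillar and basement membrane collagens were set against each other by the ratio of Col1a1 to Col4a1. It measured 0.955, 0.348, 0.475 and 1.06 in CON-LFD, 0.672, 0.501, 0.396 and 0.831 in DIO-HFD, 0.0526, 0.568, 0.908 and 0.661 in DIO-LFD and 0.441, 0.859, 0.704 and 0.730 in DIO-VSG. The groups overlapped, with an exact permutation *P* value of 0.571 for DIO-VSG against DIO-HFD (log2 difference 0.20) and 0.743 for DIO-HFD against CON-LFD (-0.15). A shift between these 2 genes was not detected with 4 mice a group, although more basement membrane than fibrillar genes passed unadjusted in DIO-VSG against DIO-HFD. Col1a1 to Col3a1, Col1a1 to Col1a2 and Col6a1 to Col6a2 gave exact *P* values of 0.114 to 0.971.

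**Figure D3:**
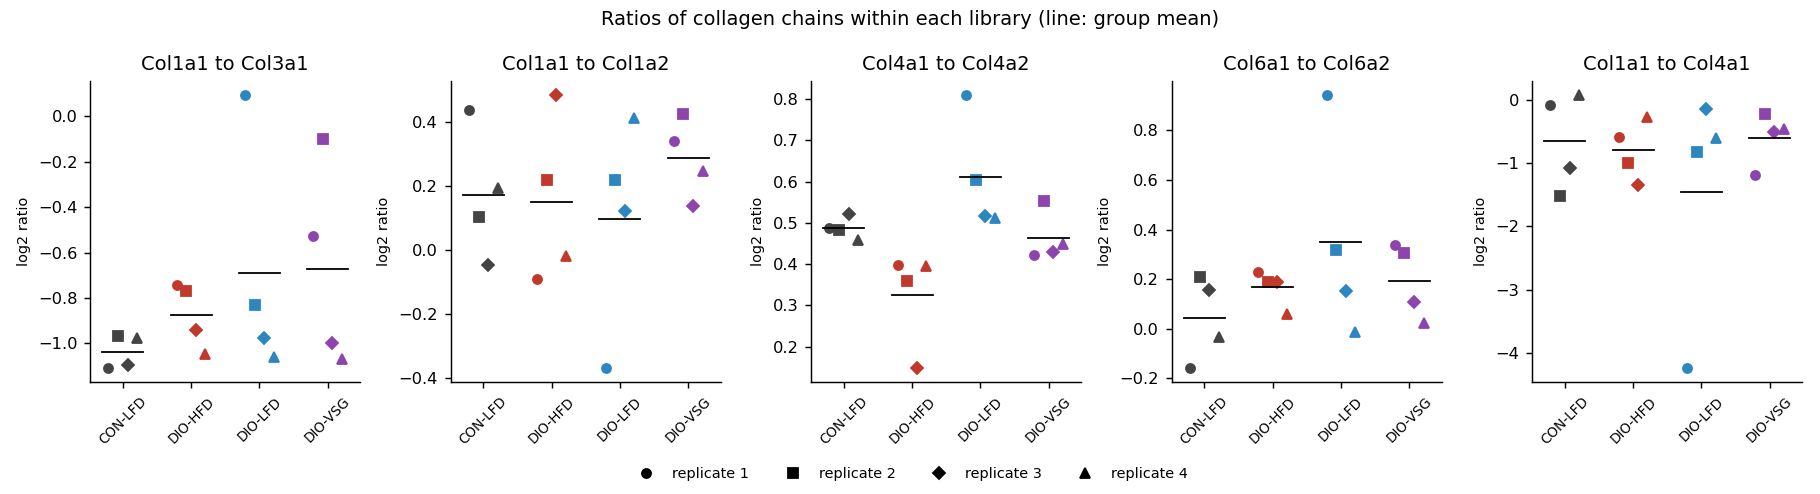
Log2 ratio of 5 chain pairs in each of the 16 libraries by group, with marker shape for the replicate number and a line at the group mean. Col4a1 to Col4a2 is lowest in the 4 DIO-HFD libraries, and DIO-LFD replicate 1 lies at -4.25 for Col1a1 to Col4a1.

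DIO-LFD replicate 1 had few fibrillar transcripts beside high counts of Col4a1 and Col4a2. It measured 4948 normalized counts of Col3a1, 5288 of Col1a1 and 6830.5 of Col1a2, while the other 3 mice of its group lay between 43127 and 125850 for Col3a1. Its Col4a1 count of 100623 was the second highest of 16, after DIO-HFD replicate 3. On the log2 scale it differed from the mean of the other 3 by -4.08 for Col3a1, -3.03 for Col1a1, -3.47 for Col6a6, -2.57 for Col15a1 and -2.37 for Col14a1, but by 0.71 for Col4a1, 0.96 for Col12a1 and 0.71 for Col28a1.

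Of the 44 genes 36 were below the mean of the other 3 mice (median -0.94), and 10 were the lowest of all 16 libraries, 5 of them fibrillar. The median over the fibrillar class was -1.41 and that over the basement membrane class -0.35, with 6 of 8 genes below and Col4a1 and Col4a2 above. In the same library the sum of 8 endothelial markers was 90902 and the sum of 9 adipocyte markers 1709950, each the highest of the 16, and the sum of 8 myofibroblast and mural markers was 43628, the lowest. That of 10 fibroblast markers was 54392, against 72138 to 169193 in the other 3 mice. Their part in its collagen levels was not tested.

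**Figure D4:**
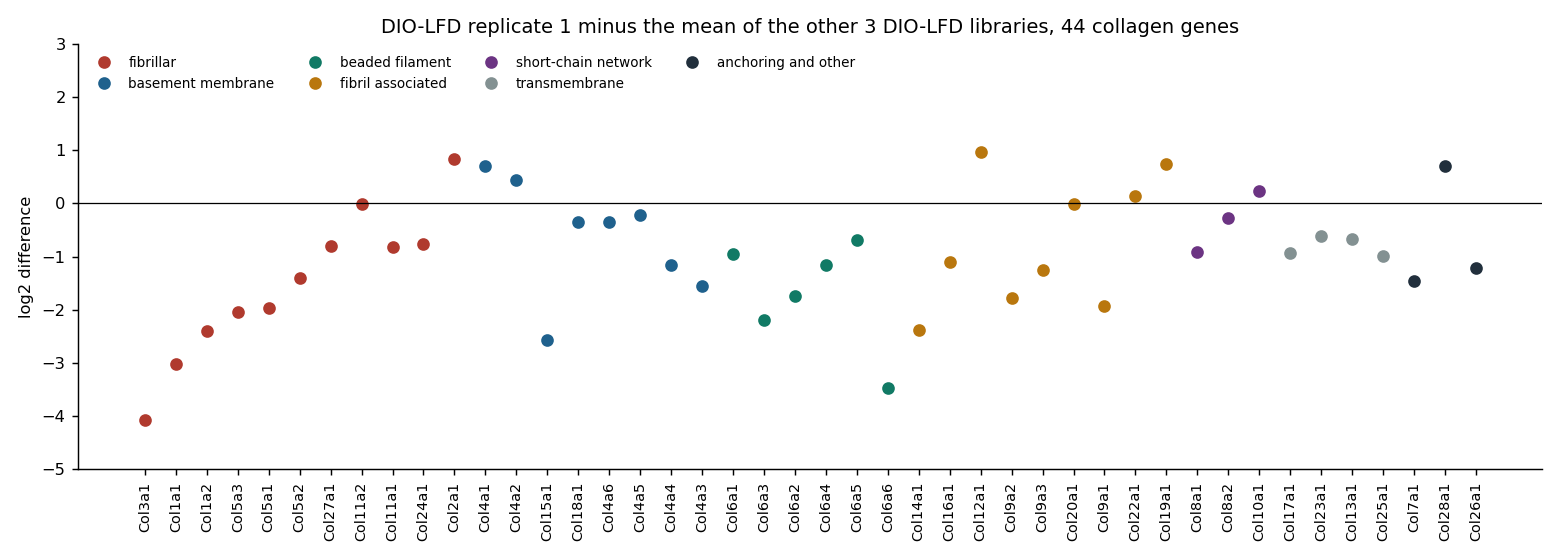
Log2 difference between DIO-LFD replicate 1 and the mean of the other 3 DIO-LFD libraries for the 44 collagen genes, colored by class and ordered by mean level within the class. The abundant fibrillar genes lie far below 0, with Col3a1 lowest, and Col4a1 and Col4a2 lie above 0.

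Collagen synthesis needs enzymes, chaperones and export factors that modify, fold, secrete, trim and cross-link the chains. Of 35 genes tested from a biosynthesis list, which also held the transcription factor Creb3l1 and the matricellular protein Sparc, 34 were lower in DIO-VSG than in DIO-HFD (median log2 fold change -0.56), 16 of them at an unadjusted *P* value below 0.05 and 0 adjusted. Of all genes 47.5% were lower and 8.12% passed unadjusted as lower. P3h2, a prolyl 3-hydroxylase that acts on type IV collagen, measured 692, 979, 793 and 675 in DIO-HFD and 434, 532, 435 and 481 in DIO-VSG, a log2 fold change of -0.73 ± 0.16 (unadjusted *P* value 0.000483, adjusted 0.243). Its groups did not overlap. P4ha1, a catalytic subunit of prolyl 4-hydroxylase, gave -0.50 ± 0.19 (unadjusted *P* value 0.0184, adjusted 0.315), and Pcolce, which enhances cleavage of the type I propeptide, gave -1.09 ± 0.41 (unadjusted *P* value 0.0198, adjusted 0.316). In DIO-VSG against DIO-LFD 34 of 35 were lower and 6 passed unadjusted as lower, against 5.41% of all genes. In DIO-HFD against CON-LFD 28 were higher and 3 passed unadjusted, against 12.9% of all genes, namely Tll1 (0.49 ± 0.19), Ppib (0.22 ± 0.08) and Colgalt2 (-0.39 ± 0.18).

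The other proteins of the basement membrane were described beside type IV collagen. All 11 genes for laminin chains, nidogens, perlecan, agrin and peroxidasin were lower in DIO-VSG than in DIO-HFD (median -0.89), 9 of them at an unadjusted *P* value below 0.05 (8.12% of all genes) and 0 adjusted. Hspg2, which encodes perlecan, measured 32295, 70614, 126218 and 48438 in DIO-HFD and 26486, 28266, 21695 and 28204 in DIO-VSG, a log2 fold change of -1.23 ± 0.35 (unadjusted *P* value 0.00315, adjusted 0.257), without overlap. Lamb2 and Lamc1, laminin chains, gave -0.79 ± 0.22 (unadjusted *P* value 0.00273, adjusted 0.246) and -0.89 ± 0.27 (unadjusted *P* value 0.00533, adjusted 0.274). Against DIO-LFD all 11 were again lower and 7 passed unadjusted (5.41% of all genes), and against CON-LFD 10 were lower and 8 passed unadjusted (7.55% of all genes), with 0 adjusted in both. These 3 comparisons share the DIO-VSG mice. In DIO-HFD against CON-LFD 9 of 11 were higher and 0 passed unadjusted, with Hspg2 at 0.43 ± 0.35, Lamb1 at -0.26 ± 0.22 and Agrn at -0.22 ± 0.24.

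Of 10 collagen receptors 8 were lower and 2 higher in DIO-VSG than in DIO-HFD, and 5 passed unadjusted as lower, against 8.12% of all genes. Mrc2, an endocytic receptor that takes up collagen fragments, measured 2292, 7166, 15495 and 3287 in DIO-HFD and 1217, 999, 1254 and 2426 in DIO-VSG, a log2 fold change of -1.95 ± 0.62 (unadjusted *P* value 0.00724, adjusted 0.274), and overlapped. The integrin subunit Itgb1 gave -0.64 ± 0.20 (unadjusted *P* value 0.00735, adjusted 0.274) and the collagen receptor kinase Ddr2 -0.94 ± 0.36 (unadjusted *P* value 0.0219, adjusted 0.319). Of 9 genes of degradation and its inhibitors 8 were lower and 2 passed unadjusted, against 8.12% of all genes passing as lower. They were Timp3, an inhibitor of metalloproteinases, at -0.76 ± 0.20 (unadjusted *P* value 0.00167, adjusted 0.246) and the collagenase Mmp13 at -1.47 ± 0.63 (unadjusted *P* value 0.0343, adjusted 0.354). The gelatinase Mmp2 gave -0.97 ± 0.46 (unadjusted *P* value 0.0538, adjusted 0.385).

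In DIO-HFD against CON-LFD, Mrc2, Itga1 and Ddr2 gave 1.28 ± 0.62, 0.59 ± 0.33 and 0.52 ± 0.36, and all 9 genes of degradation and its inhibitors were higher, with Mmp13 at 1.21 ± 0.63, Ctsk at 0.50 ± 0.45 and Mmp14 at 0.28 ± 0.31. None of these had an unadjusted *P* value below 0.05. The TGF-β axis, which drives collagen transcription, had 6 of 10 genes lower in DIO-VSG than in DIO-HFD. Here too 2 passed unadjusted, against 8.12% of all genes, the ligands Tgfb2 at -0.81 ± 0.36 (unadjusted *P* value 0.039, adjusted 0.362) and Tgfb3 at -0.54 ± 0.24 (unadjusted *P* value 0.0423, adjusted 0.368). Its mediator Smad3 gave -0.09 ± 0.13. In DIO-HFD against CON-LFD the inhibitory Smad7 gave 0.72 ± 0.22 (unadjusted *P* value 0.00533, adjusted 0.24), Tgfb1 0.36 ± 0.25 and Tgfb2 -0.41 ± 0.36. No gene of these lists passed adjusted in any comparison.

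Cell type markers were compared between the same groups. The sum of 10 fibroblast markers was 80747 to 138437 in DIO-HFD and 53939 to 93511 in DIO-VSG, and 8 of the 10 were lower in DIO-VSG, 4 of them at an unadjusted *P* value below 0.05 (8.12% of all genes). For 8 endothelial markers the sums were 49958 to 81028 and 43496 to 46985, without overlap, and all 8 were lower, 4 unadjusted. Those of 8 myofibroblast and mural markers were 70672 to 109385 and 46443 to 76939, with 7 of 8 lower, 6 unadjusted. The remaining one, Cspg4, was higher in DIO-VSG, at 755 to 2602 normalized counts in DIO-HFD and 2320 to 4534 in DIO-VSG. All 9 B cell and all 9 T cell markers were higher in DIO-VSG, with 0 unadjusted (5.05% of all genes as higher) and 0 without overlap (2.37%). DIO-HFD replicate 1 had the highest B cell sum of the 16. Of 7 keratinocyte markers 6 could be tested and all 6 were lower in DIO-VSG, with sums of 1321 to 13258 and 1108 to 1171, where DIO-HFD replicate 4 alone made the high value and the other 3 lay at 1321 to 1755. All 8 macrophage markers were lower in DIO-VSG (median -0.85, 2 unadjusted), and 7 of 9 mammary epithelial markers were higher (median 0.28). Of 7 skeletal muscle markers 6 were higher, but their sums were 2189, 21702, 408 and 2915 in DIO-VSG against 802 to 3096 in DIO-HFD, so that replicate 2 stood alone. DIO-LFD replicate 4 (128473) and CON-LFD replicate 4 (29611) were also high in these markers. In DIO-HFD against CON-LFD all 9 mammary epithelial markers were lower (median -0.70, 4 unadjusted, against 7.66% of all genes) and 7 of 8 macrophage markers higher (median 0.58, 2 unadjusted, against 5.23%), and in DIO-LFD against DIO-HFD 7 of 9 mammary epithelial markers were higher, all 7 unadjusted (5.37% of all genes). Marker sums in DIO-LFD were 54392 to 169193 for fibroblasts, 43628 to 83851 for myofibroblast and mural cells, 12561 to 27418 for macrophages and 904040 to 1709950 for adipocytes. Each of these ranges overlapped that of DIO-HFD. In DIO-VSG against DIO-LFD all 9 adipocyte and all 9 mammary epithelial markers were lower with none unadjusted. All 8 endothelial (2 unadjusted) and 7 of 8 myofibroblast and mural markers (2) were lower, against 5.41% of all genes passing unadjusted as lower. All 9 B cell and all 9 T cell markers were higher without overlap, against 12.9% of all genes. None of these lists had a marker at an adjusted *P* value below 0.05. The part of cell composition in the collagen differences was not tested beyond the B cell covariate and the fits without the 4 libraries low in B cell transcripts.

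**Figure D5:**
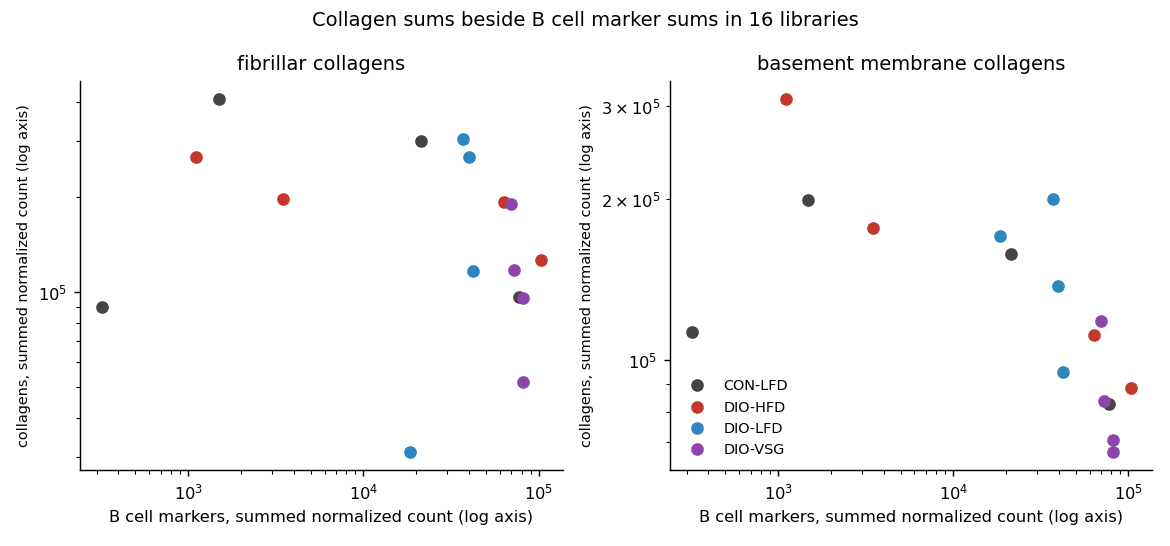
Summed normalized counts of the 11 fibrillar (left) and 8 basement membrane (right) collagen genes against the sum of 9 B cell markers in the 16 libraries, both axes logarithmic, colored by group. The DIO-VSG libraries lie together at 69977 to 81296 for B cell markers, and the libraries of CON-LFD and DIO-HFD spread over the whole axis.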

How the data were processed

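RNA of the mammary fat pad was measured by stranded total RNA sequencing in 16 mice, 4 for each of 4 groups, and the replicates are separate animals by their animal numbers. The gene table deposited by the authors is described as normalized counts, but its values are log2 values from the variance-stabilizing transformation of DESeq2, with a lowest value of 5.36. The study's methods name STAR and salmon on GRCm38 with Gencode, and the submitters' processing notes name TopHat2 2.0.7 and HTSeq 0.5.3p9. These differ, the Gencode release is not given in the sources used here, and how multi-mapped reads of similar chains were handled is not known.

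The transformation was inverted to normalized counts (counts divided by the authors' size factors), from which whole reads were recovered in 100% of values within 0.05 read. A gene was kept if 4 or more libraries reached 10 normalized counts (21218 of 23179) and tested on log2(normalized count + 1) with limma-trend (limma 3.58.1, R 4.3.3) over all 16 libraries and 4 group means, two-sided, with Benjamini-Hochberg adjustment over all genes, in 6 comparisons. For chain ratios, exact two-sided permutation tests over mice were run (scipy 1.17.1). Tables were handled in Python 3.11.15 with pandas 2.3.3 and numpy 2.4.6. The fits were tested on simulated data with known changes. No pair of replicates agreed within sampling noise. At 46907377 reads or more per library, counting error is small for all but the scarcest collagens, and the spread between mice sets the precision.

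Members, classes, marker lists and pathway lists were chosen with earlier results of these data known. Named were the 2 highest genes of each class, the 5 with the smallest *P* values in each comparison, their partner chains, and the 3 pathway genes per list with the smallest *P* values in DIO-HFD against CON-LFD and DIO-VSG against DIO-HFD. Genes given beside these were named after their values were seen. Alternatives were other pseudocounts (0.5 and 5), no filter and a filter of 100, quantile and upper-quartile scaling, and the deposited values themselves. Further ones were limma-voom on recovered reads, only the 8 libraries compared, library weights, a replicate block, and each library left out. The B cell covariate was the mean log2 level of the B cell markers in a library, while their sum served to pick the libraries low in B cell transcripts. Coordinates are from GENCODE M21 on GRCm38 and sequences from RefSeq on GRCm38.p6.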

Additional observations from a re-analysis of the deposited data

Results flagged for a closer look

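In 4 of 160 groups of 4 mice examined, 1 library lay far from the other 3 by its gap to the nearest of them, which is fewer than the 1 in 20 groups that chance gives. The normalized count of Col20a1 in DIO-HFD replicate 3 was 101.5, against 189 to 213 in the other DIO-HFD mice. The normalized count of Col26a1 in CON-LFD replicate 1 was 13.2, against 9.04 to 9.54 in the others, a difference of a few reads. The ratio of Col4a1 to Col4a2 in DIO-HFD replicate 3 was 1.11, against 1.28 to 1.32 in the others. The ratio of Col1a1 to Col4a1 in DIO-LFD replicate 1 was 0.0526, against 0.568 to 0.908 in the others.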

How the results depend on the processing

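Fold changes were followed through the alternatives for the 5 collagens with the smallest *P* values in each comparison, which were chosen for their strength, and not for the other collagens named. Those 30 kept their sign in every alternative run, and of 894 values 773 stayed on their side of an unadjusted *P* value of 0.05. Counts of collagens at an unadjusted *P* value below 0.05 depended on which libraries entered. The share of all genes passing moved between the fits as well. Counts given in this section without that share are therefore not results about the collagens in particular. Library weights gave 10 in DIO-HFD against CON-LFD, 21 in DIO-VSG against DIO-HFD, 6 in DIO-LFD against DIO-HFD, 19 in DIO-VSG against DIO-LFD, 24 in DIO-VSG against CON-LFD and 6 in DIO-LFD against CON-LFD, and at an adjusted *P* value below 0.05 they gave 3, 10 and 12 in DIO-HFD against CON-LFD, DIO-VSG against DIO-HFD and DIO-VSG against CON-LFD. The B cell covariate gave 4 in DIO-HFD against CON-LFD, 2 in DIO-VSG against DIO-HFD, 4 in DIO-VSG against DIO-LFD, 5 in DIO-VSG against CON-LFD and 2 in DIO-LFD against CON-LFD. Without the 4 libraries with a low B cell sum the counts in these 5 comparisons were 1, 2, 5, 4 and 1, and also without DIO-LFD replicate 1 they were 1, 3, 18, 4 and 1. Both choices were made after seeing the data. A filter of 100 normalized counts gave 1 in DIO-HFD against CON-LFD and 1 in DIO-VSG against DIO-LFD, and quantile scaling gave 1 and 4. Fits of only the 8 libraries compared gave 1 in DIO-LFD against DIO-HFD and 9 in DIO-VSG against DIO-LFD. The cause of these changes was not tested.

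With 1 library left out the counts ranged from 0 to 5 in DIO-HFD against CON-LFD, 5 to 16 in DIO-VSG against DIO-HFD, 0 to 3 in DIO-LFD against DIO-HFD, 0 to 6 in DIO-VSG against DIO-LFD, 1 to 15 in DIO-VSG against CON-LFD and 0 to 3 in DIO-LFD against CON-LFD, and the adjusted count was 0 to 1 in DIO-VSG against CON-LFD (1 without CON-LFD replicate 3) and 0 in the others. Log2 ratio differences with 1 mouse left out ranged as follows. Col4a1 to Col4a2 was -0.19 to -0.10 in DIO-HFD against CON-LFD, 0.0789 to 0.16 in DIO-VSG against DIO-HFD and 0.22 to 0.32 in DIO-LFD against DIO-HFD. Col1a1 to Col3a1 was -0.0794 to 0.31 in DIO-LFD against DIO-HFD and -0.17 to 0.28 in DIO-VSG against DIO-LFD. Col1a1 to Col1a2 was -0.14 to 0.0655 in DIO-HFD against CON-LFD and -0.16 to 0.10 in DIO-LFD against DIO-HFD. Col6a1 to Col6a2 was -0.0216 to 0.0826 in DIO-VSG against DIO-HFD, -0.015 to 0.30 in DIO-LFD against DIO-HFD and -0.28 to 0.041 in DIO-VSG against DIO-LFD. Col1a1 to Col4a1 was -0.44 to 0.0943 in DIO-HFD against CON-LFD, -1.09 to 0.28 in DIO-LFD against DIO-HFD and -0.0734 to 1.30 in DIO-VSG against DIO-LFD.

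Same-numbered mice of different groups had correlations of -0.61 to 0.53, with 9 of 24 pairs above 0.1. Their median was 0.018, against -0.0034 for mice of different groups with different numbers. The groups were therefore compared without pairing. A replicate block gave 5 collagens at an unadjusted *P* value below 0.05 in DIO-VSG against CON-LFD and left the other counts as they were. The share of all genes passing under the block is not given, so this count is not a result about the collagens in particular. Depth limits mainly the 5 collagens with a mean under 20 normalized counts.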
